A study of Drosophila melanogaster with 17 samples.

Results

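Digestive enzyme genes are the working genes of the insect gut, and 44 of the 13872 genes in the deposited count table carry the symbols of the main families. They were selected by name alone. The symbol had to begin with Jon and a digit, with Mal-A or with Amy-, had to end in Try, or had to be Lys followed by a single capital letter. This gave 16 Jon genes, 11 Try genes, 8 Mal-A genes, 7 Lys genes and 2 Amy genes, all of which are present under the same symbol in the BDGP6 annotation of the fly genome. They were followed through 17 mRNA-seq libraries, each made from a pool of central nervous systems (CNS) dissected out of Drosophila melanogaster larvae in the third instar.

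All larvae carried the elavGAL4 driver, which is active in neurons after their last division. The 6 WT libraries came from larvae in which the driver was combined with an empty UAS-PWIZ insertion. In the 7 C24 libraries the driver switched on the Smn RNAi C24 hairpin against Smn, a gene needed for the assembly of splicing particles. The 4 X7/C24 libraries carried the driver, the hairpin and 1 copy of the Smn X7 deletion, which removes the gene from 1 chromosome in every tissue. Because the driver is neuronal, the other cells of a C24 pool were meant to keep their Smn, which was not measured by cell type. The libraries were sequenced in 3 rounds, a pilot (WT_1 to WT_3 and C24_1 to C24_4), a second round (WT_4 to WT_6 and C24_5 to C24_7) and the third (all X7/C24).

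The Jon genes encode the Jonah proteases, small serine proteases made in large amounts by the midgut, and the Try genes encode trypsins that cut food protein after lysine and arginine. Lysozymes, the Lys genes, break the walls of bacteria taken in with the food. Maltases (Mal-A) release glucose from short sugar chains, and the amylases Amy-p and Amy-d cut starch into such chains. In larvae these enzymes are released into the gut lumen by cells of the midgut and its caeca, different regions of the gut making different sets. The larval brain and ventral cord are not known as a source of secreted digestive enzymes.

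Library totals ran from 7883183 to 28339670 counts (median 18432613), and levels are given as CPM, the count scaled to a common library size of 1000000. Smn itself lay between 61.5 and 418 CPM in WT (median 103, n = 6), between 53.6 and 391 CPM in C24 (median 83.2, n = 7) and between 27.8 and 48.6 CPM in X7/C24 (median 28.4, n = 4), so that WT and C24 overlapped while X7/C24 lay below both. In 3 pilot libraries, neuronal markers went against the label CNS. A list of 11 neuronal genes found in the table summed to 73.8 CPM in C24_1, where Rdl had no count, to 181 CPM in WT_2 and to 731 CPM in WT_1, against at least 4548 CPM in each of the other 14 libraries. A list of 6 glial genes was low in C24_1 (121 CPM) and WT_2 (157 CPM) but not in WT_1. There it had 896 CPM, inside the 822 CPM (X7/C24_3) to 1533 CPM (WT_3) of the other 14 libraries. In WT_4 and WT_5, which are also followed closely here, the neuronal list stood at 7308 and 7190 CPM.

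Outside a few libraries nearly all digestive enzyme genes were at or near 0, and a single maltase gene was the exception. Leaving out Mal-A5, the members summed to 9262 CPM (73016 counts) in C24_1, 312 CPM (2818 counts) in WT_2, 174 CPM (3176 counts) in WT_5 and 41.4 CPM (1116 counts) in WT_4. The other 13 libraries held between 52 and 251 counts on these 43 genes, or 4.34 to 17.1 CPM with a median of 6.52 CPM. In C24_1 the members with Mal-A5 took 0.944% of all counts (Wilson 95% interval 0.937 to 0.950%, counting error only). In bulk samples of this kind, fewer cells of a type and less RNA per cell cannot be told apart.

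Of the 44 members, 36 reached 10 counts in at least 1 library and 17 did so outside C24_1, WT_2, WT_4 and WT_5. Only 9 had a count in every library. The 8 members that stayed below 10 counts everywhere were gammaTry, kappaTry, lambdaTry, LysD, Mal-A2, Mal-A3, Mal-A7 and Jon44E, and gammaTry had none at all. A count of 0 allows up to 3 counts, which is 0.106 to 0.381 CPM at these depths.

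**Figure D1:**
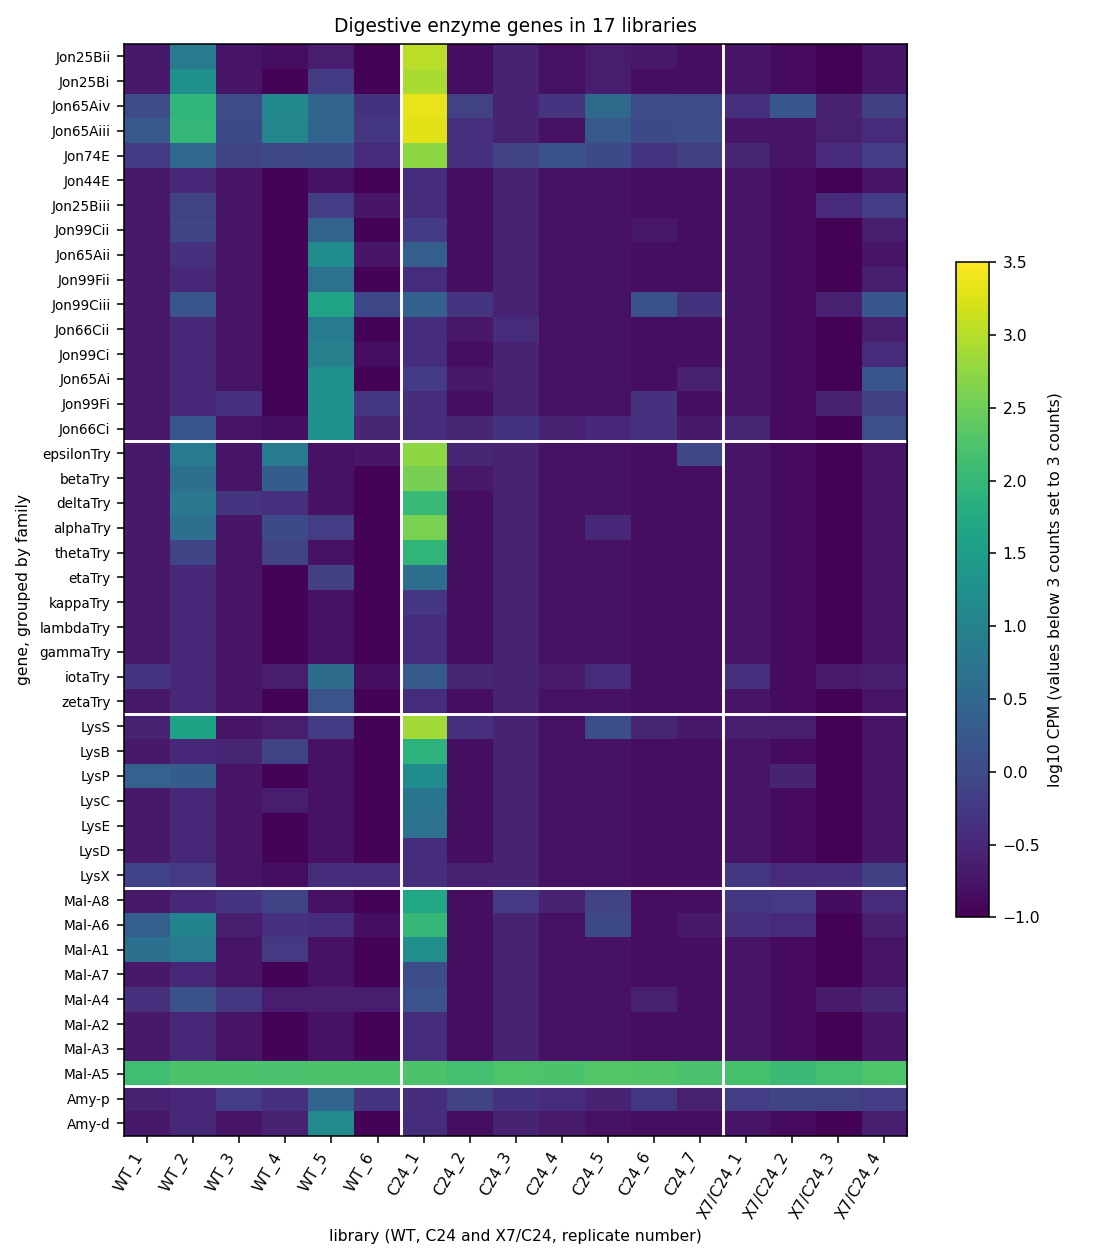
Level of the 44 digestive enzyme genes (rows, grouped by family) in the 17 libraries (columns), as log10 CPM with counts below 3 set to 3. C24_1 is bright over much of the Jon, Try, Lys and Mal-A families, WT_5 over a different set of Jon genes and Amy-d, and Mal-A5 is bright in every library.

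Mal-A5, a maltase gene on chromosome arm 2R, was the only member with a high level throughout. It had between 1375 and 4442 counts in every library. Its level was 163 ± 16.1 CPM in WT (SD, n = 6), 173 ± 17.1 CPM in C24 (SD, n = 7) and 151 ± 27.9 CPM in X7/C24 (SD, n = 4), and the ranges of the groups overlapped. Scaled by its exon length this was 55.8 to 92.4 RPKM (the CPM per 1000 bases of exon). C24_1, with 174 CPM, and WT_5, also with 174 CPM, lay inside the range of the 13 other libraries (117 to 194 CPM). With library sizes scaled by TMM, an alternative added after seeing the data, C24_1 was at 252 CPM, above the 13 others (112 to 192 CPM), and WT_5 at 164 CPM among them. The lowest WT value, 131 CPM, was in WT_1, which stood apart from the other WT libraries (162 to 174 CPM).

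C24_1 and WT_5 were each the highest library for a set of members of their own. Among the members with at least 10 counts in their highest library, that library was C24_1 for 20 genes and WT_5 for 13, while LysX was highest in WT_1 and Mal-A5 in C24_5. No member of this kind was highest in WT_2 or WT_4. In 18 of the 20 and 10 of the 13, the highest library exceeded the next by more than 5-fold. The libraries are not replicates of each other in this respect, and these are descriptions of single libraries without a test.

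**Figure D2:**
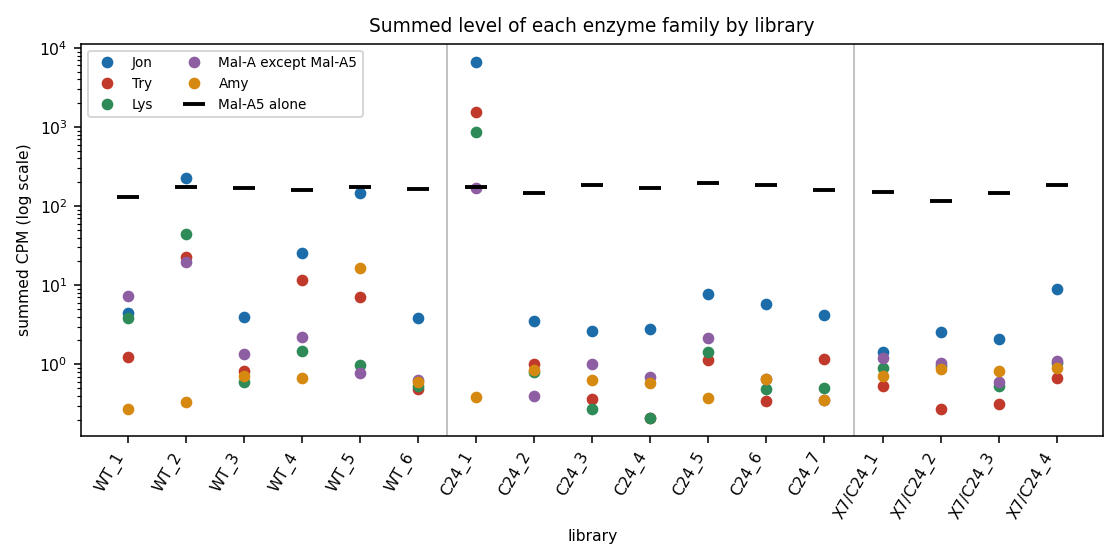
Summed CPM of each enzyme family (log axis) in each of the 17 libraries, with Mal-A5 drawn apart as a black bar and sums below 3 counts set to 3 counts. The Jon sum runs from 1.43 CPM in X7/C24_1 to 6696 CPM in C24_1, whereas Mal-A5 keeps to 117 to 194 CPM.

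The make-up of the enzyme counts differed between the 4 libraries that were high. Without Mal-A5, Jon genes took 72.3% of the member counts in C24_1 (72.0 to 72.6%), 72.0% in WT_2 (70.3 to 73.6%), 61.2% in WT_4 (58.3 to 64.0%) and 85.4% in WT_5 (84.1 to 86.6%). Trypsins took 16.6% in C24_1 (16.3 to 16.8%), 7.31% in WT_2 (6.41 to 8.33%), 28.3% in WT_4 (25.8 to 31.0%) and 4.03% in WT_5 (3.40 to 4.77%). As a ratio, the widest contrast was in the amylases, with 9.57% of the member counts in WT_5 (8.60 to 10.6%) and 0.00411% in C24_1, where they had 3 counts. Lysozymes went the other way, with 9.34% in C24_1 (9.13 to 9.55%) and 0.567% in WT_5 (0.359 to 0.894%). Such shares were not confined to these libraries. Amylases took 18.7% in X7/C24_3, from 23 counts, and lysozymes 14.4% in WT_2 and, from 57 counts, 22.7% in WT_1. The levels did stand apart. Amylases summed to 16.6 CPM in WT_5, against 0.272 to 0.908 CPM in the 13 others. Lysozymes summed to 865 CPM in C24_1, against 0.0915 to 3.87 CPM in the 13 others.

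Leaving out Mal-A5, the Jonah proteases were the most abundant family in each of the 4 libraries, and they split by gene. Compared by CPM with a floor of 3 counts, 5 of the 16 were at least 5-fold higher in C24_1 than in WT_5 and 8 at least 5-fold higher in WT_5. Jon65Aiv, the highest member in C24_1, had 17767 counts there (2254 CPM), 837 in WT_2 (92.8 CPM), 344 in WT_4 (12.8 CPM) and 53 in WT_5 (2.90 CPM). The 13 other libraries held 1 to 66 counts of it, or 0.0915 to 3.58 CPM. The level in C24_1 was 2324-fold that of the 13 pooled, and WT_5 did not exceed their highest.

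Jon65Aiii, its neighbour, had 15445 counts in C24_1 (1959 CPM), 879 in WT_2 (97.4 CPM), 296 in WT_4 (11.0 CPM) and 54 in WT_5 (2.96 CPM), against 1 to 33 counts in the 13 others. In the 4 libraries its counts kept close to those of Jon65Aiv, the ratio of Jon65Aiv to Jon65Aiii being 1.15 in C24_1, 0.952 in WT_2, 1.16 in WT_4 and 0.982 in WT_5. At lower counts the genes could differ, with 66 of Jon65Aiv and 33 of Jon65Aiii in C24_5 and 36 and 4 in X7/C24_2. The next genes of the cluster behaved otherwise. Jon65Aii had 18 counts in C24_1, 4 in WT_2, 2 in WT_4 and 280 in WT_5 (15.3 CPM). Jon65Ai had 5 counts in C24_1, 3 in WT_2, 2 in WT_4 and 342 in WT_5 (18.7 CPM), and after WT_5 its highest level was 1.51 CPM in X7/C24_4, from 25 counts.

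All 4 of these genes lie within a short stretch of chromosome arm 3L. In BDGP6 coordinates Jon65Aiv is at chr3L:6039155-6040135 and Jon65Aiii at chr3L:6050757-6051690, both on the plus strand. Jon65Aii follows at chr3L:6052321-6053215 on the plus strand and Jon65Ai at chr3L:6053493-6054443 on the minus strand. Adjacent genes in the row, Jon65Aiii and Jon65Aii, were thus highest in different libraries. The authors aligned reads to the earlier build BDGP5, and these coordinates serve only to place the genes.

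**Figure D3:**
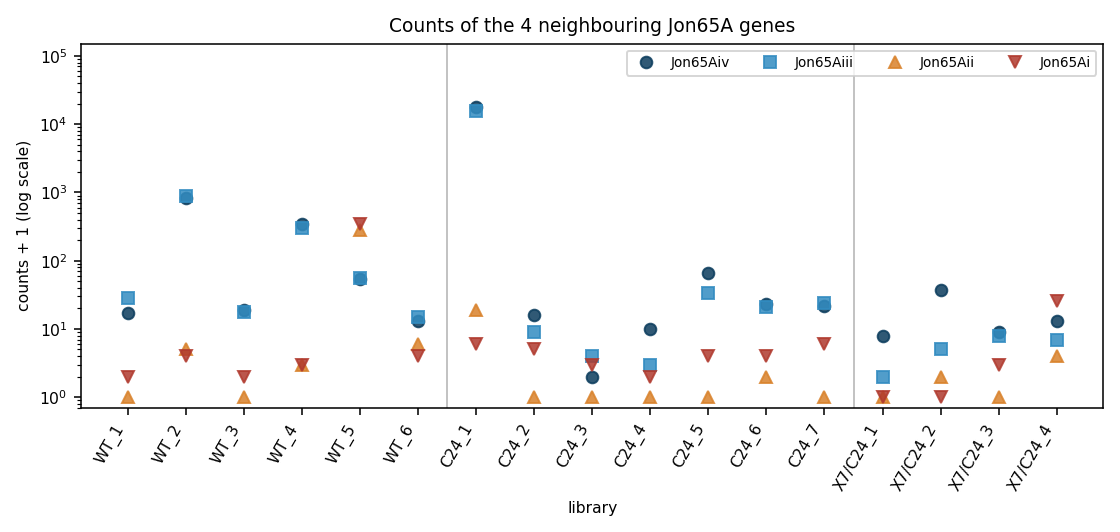
Counts plus 1 (log axis) of the 4 neighbouring Jon65A genes in the 17 libraries. Jon65Aiv and Jon65Aiii peak together in C24_1 with 17767 and 15445 counts and are next highest in WT_2 and WT_4, whereas Jon65Aii and Jon65Ai peak in WT_5 with 280 and 342 counts.

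The other Jonah clusters had no such split at high counts. On 2L, Jon25Bii had 8516 counts in C24_1 (1080 CPM), 66 in WT_2 and 4 each in WT_4 and WT_5. Jon25Bi beside it had 6701 counts in C24_1 (850 CPM), 163 in WT_2, 1 in WT_4 and 11 in WT_5. Jon25Biii, also in that row, had only 2 counts in C24_1 and its highest count, 12, in WT_5. Jon74E on 3L had 4301 counts in C24_1 (546 CPM) and between 4 and 30 in all other libraries.

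Both Jon66C genes, both Jon99F genes and 2 of the 3 Jon99C genes were at least 5-fold higher in WT_5 than in C24_1. Jon99Ciii on 3R was the highest member of WT_5 after Mal-A5, with 766 counts (41.9 CPM). C24_1 had 19 counts of it, WT_2 14 and WT_4 2, and the other libraries at most 27 (1.63 CPM, in X7/C24_4). Jon66Ci had 377 counts in WT_5, Jon99Fi 350, Jon99Ci 168, Jon66Cii 136 and Jon99Fii 89. Of these 5, C24_1 held 2, 2, 0, 0 and 2 counts. Jon99Cii, with 49 counts in WT_5, 8 in WT_2 and 5 in C24_1, was less than 5-fold apart with the floor and belongs to neither set, and Jon44E had no more than 3 counts in any library.

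Trypsins were a C24_1 family. Of the 11 genes, 6 were at least 5-fold higher there than in WT_5 and none the reverse. The highest, epsilonTry, had 4361 counts in C24_1 (553 CPM), 193 in WT_4 (7.15 CPM), 61 in WT_2 (6.76 CPM) and 2 in WT_5. Unlike Jon65Aiv and LysS, it was at about the same level in WT_4 and WT_2. Among the 13 others its highest level was 0.901 CPM, from 18 counts in C24_7.

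Further trypsins were alphaTry with 3156 counts in C24_1, betaTry with 2969, deltaTry with 870, thetaTry with 683 and etaTry with 33. In WT_4 betaTry had 57 counts, alphaTry 27 and thetaTry 21, and in WT_2 deltaTry had 56, betaTry 40 and alphaTry 39. WT_5 was highest for the remaining trypsins with 10 or more counts, iotaTry (70 counts, against 15 in C24_1) and zetaTry (26 counts, against 0 in C24_1, WT_2 and WT_4 and 1 in all 13 others together). The genes deltaTry and gammaTry are near-identical neighbours, and only reads with a single position were counted, so their counts, including the absence of any for gammaTry, are uncertain. Exons of deltaTry also overlap those of CG13202.

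Lysozymes were likewise high in C24_1. LysS had 5983 counts in C24_1 (759 CPM), 375 in WT_2 (41.6 CPM), 6 in WT_4, 11 in WT_5 and at most 22 elsewhere (1.19 CPM, in C24_5). WT_2 was therefore high and WT_4 was not. LysB had 627 counts in C24_1 and 20 in WT_4, but 3 in WT_2 and none in WT_5. LysC and LysE had 44 and 38 counts in C24_1 and at most 6 in any other library. LysB, LysC, LysD and LysE are close copies of each other in a row on 3L, and exons of LysC and LysD overlap, so that the split among them is uncertain.

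LysP, a lysozyme known from the adult salivary gland, had 123 counts in C24_1, 38 in WT_1 and 19 in WT_2. Its second place went to WT_1. LysX was not high in C24_1, with 3 counts there and between 1 and 12 in every library, and LysD had a single count in all.

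The other maltases with at least 10 counts were highest in C24_1. Mal-A6 had 793 counts in C24_1 (101 CPM), 95 in WT_2 (10.5 CPM), 34 in WT_1 (2.31 CPM), 12 in WT_4 and 7 in WT_5. Mal-A8 had 371 counts in C24_1 and 23 in WT_4 but 1 in WT_2. Mal-A1 had 130 counts in C24_1 (16.5 CPM), 66 in WT_2 (7.32 CPM), 64 in WT_1 (4.35 CPM) and 15 in WT_4, and at most 2 in the other libraries. Its exons overlap those of Cyp4e1, and those of Mal-A8 overlap mtt. Counted without strand, reads that touch both genes of a pair are left out, which can lower these counts. Mal-A4 was highest in C24_1 by little, with 11 counts there (1.40 CPM) and 12 in WT_2 (1.33 CPM).

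The amylases stood out in WT_5 alone. Amy-d had 251 counts in WT_5 (13.7 CPM), 7 in WT_4 and at most 4 in any other library, C24_1 included with 0. Amy-p had 53 counts in WT_5 (2.90 CPM), 3 in C24_1 and none in WT_2, and 4 to 22 counts in the 13 others, where it was detected in each. In WT_5 Amy-d was thus the higher of the pair, while in all 13 others the counts of Amy-p were above those of Amy-d. The coding parts of these genes are near-identical, and counting reads with a single position can shift counts between them or lose them.

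**Figure D4:**
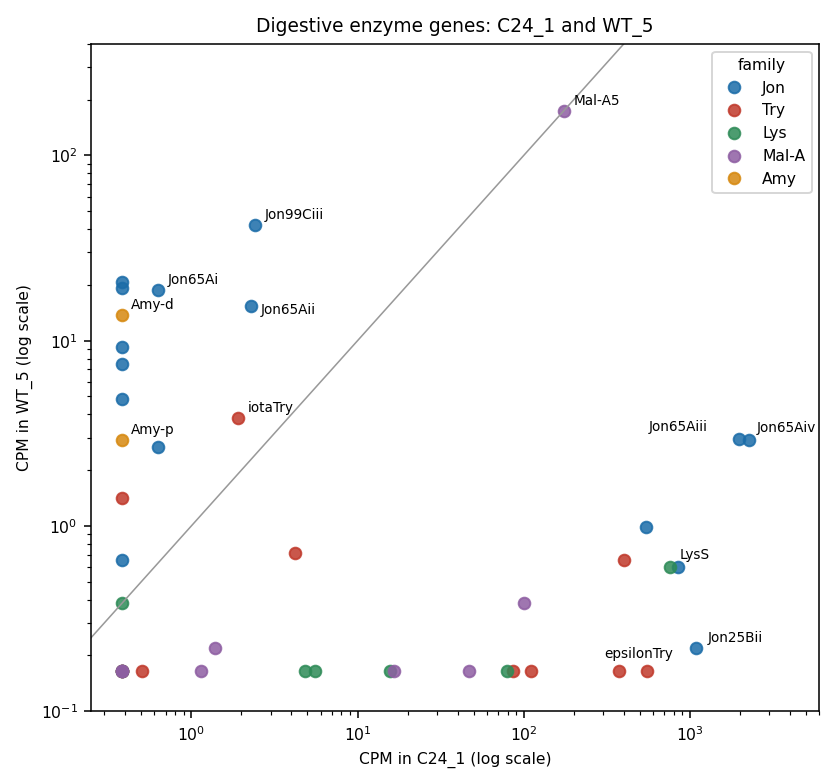
CPM in C24_1 (horizontal) and in WT_5 (vertical) of the 44 genes, both on log axes, coloured by family, with counts below 3 set to 3 and the line of equal CPM in grey. The genes fall along the axes rather than along the line, with 20 at least 5-fold higher in C24_1 and 10 at least 5-fold higher in WT_5, and Mal-A5 lies on the line at this scaling.

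In all, 20 members were at least 5-fold higher in C24_1 than in WT_5 (5 Jon, 6 Try, 5 Lys and 4 Mal-A) and 10 were at least 5-fold higher in WT_5 (8 Jon and both Amy). These sets were drawn from the values of C24_1 and WT_5. The share of all genes at least 5-fold apart between these libraries was not counted. The numbers, by family or in all, therefore describe the members and not a trait particular to them. WT_2 and WT_4 were also named beforehand for close description, and the 13 others are the libraries that remained. That WT_2 and WT_4 exceed the 13 can follow from this choice and is given as a description. The 20 genes summed to 9250 CPM in C24_1 and 10.6 CPM in WT_5. They stood at 305 CPM in WT_2 and 39.8 CPM in WT_4, above the 1.62 to 14.8 CPM of the 13 others (median 3.45 CPM). The 10 genes summed to 154 CPM in WT_5 and 6.47 CPM in C24_1, and with 4.32 CPM in WT_2 and 1.04 CPM in WT_4 those libraries lay within the 0.680 to 7.08 CPM of the 13 others (median 1.52 CPM). WT_2 and WT_4 were therefore high for the C24_1 genes and not for the WT_5 genes.

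Correlations used the 34 members other than Mal-A5 with at least 10 counts in C24_1, WT_2, WT_4 or WT_5. Across these, the log2 levels (counts below 3 set to 3) of C24_1 had a Pearson correlation of 0.81 with WT_2, 0.69 with WT_4 and -0.54 with WT_5. The Spearman values were 0.80, 0.69 and -0.50. For WT_5 the closest library was X7/C24_4, with 0.64 (Spearman 0.67). Genes entered because they were high in a library being compared, which can by itself push the value between C24_1 and WT_5 down. The values therefore add nothing to the split. These are correlations across genes of the same families, many of them neighbours or copies, between libraries of unequal depth, and they are given as descriptions.

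The low-level libraries were not all alike. X7/C24_4 had the highest sum of the 10 WT_5 genes outside WT_5, 7.08 CPM from 117 counts, including 27 counts of Jon99Ciii, 25 of Jon65Ai and 21 of Jon66Ci, while its 20 C24_1 genes stood at 3.45 CPM. In WT_1 (14.8 CPM) and C24_5 (10.8 CPM) the C24_1 genes were highest among the 13. C24_5 had 66 counts of Jon65Aiv, 33 of Jon65Aiii and 22 of LysS. In WT_1 the counts were mainly on Mal-A1, LysP, Mal-A6 and Jon65Aiii, with 64, 38, 34 and 27.

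WT_2 was not a scaled copy of C24_1. Over the 15 members other than Mal-A5 with at least 10 counts in both, the ratio of the CPM in C24_1 to that in WT_2 had a median of 20.1 and ran from 1.05 for Mal-A4 to 164 for Jon74E. For WT_4 the ratio over 12 members, again without Mal-A5, had a median of 177 and ran from 29.7 for Mal-A1 to 566 for Jon74E. Some of the highest genes of C24_1 were near 0 in WT_4, among them Jon25Bii, Jon25Bi and LysS with 4, 1 and 6 counts.

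Markers of other larval tissues moved with the enzyme genes in some of these libraries and not in others, and their part in the result was not tested. The muscle list (9 of 9 genes found, each with a count) summed to 2480 CPM in C24_1, 1385 CPM in WT_2 and 2512 CPM in WT_1, and to 38.0 to 112 CPM in the other 14 libraries. The fat body list (6 of 6, each with a count) summed to 3932 CPM in C24_1, 2759 CPM in WT_2 and 8359 CPM in WT_1. WT_1, with the highest fat body and muscle sums, had 17.1 CPM on the digestive enzyme genes other than Mal-A5. WT_4 and WT_5 had 66.1 and 56.0 CPM on the muscle list and 263 and 288 CPM on the fat body list. In the 8 other libraries sequenced after the pilot the fat body list lay between 64.1 and 270 CPM, so that WT_5 was above them.

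The salivary gland list (6 of 6) stood at 1193 CPM in C24_1, 233 CPM in WT_2 and 143 CPM in WT_1, and at 8.86 and 16.3 CPM in WT_4 and WT_5. By group, the list ranges were 8.32 to 233 CPM in WT, 8.56 to 1193 CPM in C24 and 5.50 to 17.0 CPM in X7/C24. Those of the muscle list were 56.0 to 2512, 38.0 to 2480 and 42.6 to 112 CPM in the same order. Those of the fat body list were 64.1 to 8359, 25.2 to 3932 and 200 to 270 CPM. The imaginal disc list went the other way, with 4.69 CPM in C24_1 and 13.6 CPM in WT_2, against 61.5 to 142 CPM in the 13 others. The Malpighian tubule list had 16.1 and 17.0 CPM in C24_1 and WT_2, inside the 8.33 to 20.1 CPM of the 13. The hemocyte list had 104 and 166 CPM there, inside the 41.1 to 344 CPM of the 13.

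**Figure D5:**
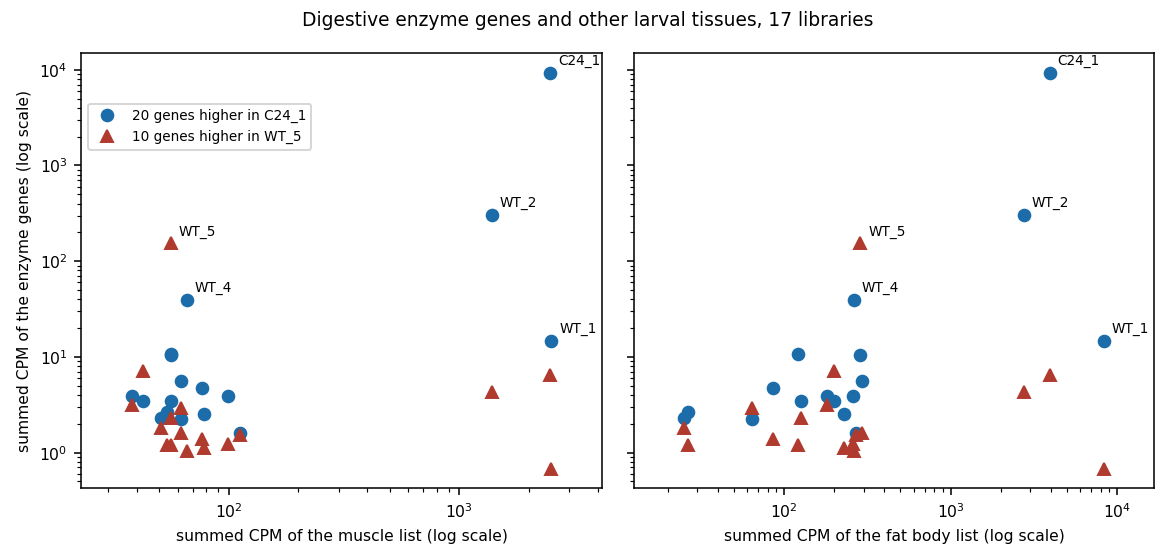
Summed CPM of the 20 enzyme genes higher in C24_1 (circles) and the 10 higher in WT_5 (triangles) against the summed CPM of the muscle list (left) and the fat body list (right), with 1 point of each kind per library and all axes logarithmic. WT_1 lies far right but low, and WT_4 and WT_5 are raised for 1 of the gene sets with muscle sums of 66.1 and 56.0 CPM.

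Gut genes that the name rule did not take were looked at in the same way. Of 8 further midgut genes, all had counts in C24_1, where they summed to 642 CPM against 24.6 to 70.5 CPM in all other libraries. Nearly all of this was 2 genes of the peritrophic matrix, the sheath that lines the midgut lumen. Peritrophin-15a had 2858 counts in C24_1 (363 CPM) and Peritrophin-15b 2040 (259 CPM), against 2 and 0 in WT_5, 10 and 6 in WT_2 and 0 and 1 in WT_4. Among the 13 others X7/C24_2 had 99 and 65, and the rest at most 4 and 2. The homeotic gene lab and Myo31DF, with 0.381 and 10.4 CPM in C24_1, lay below all 13 others there (at least 1.29 and 25.4 CPM). Npc1b had 14 counts in C24_1 and 26 in WT_5 (1.78 and 1.42 CPM), against at most 0.217 CPM in the 13 others. Vha100-4 had 13 counts in C24_1, 11 in WT_4 and none in WT_5. GATAe, a transcription factor of the midgut, had 5 counts in C24_1, 6 in WT_5 and 4 in WT_4. These were 0.634, 0.329 and 0.148 CPM, against at most 0.136 CPM in the 13 others. The brush border gene mex1 had 47, 33 and 26 counts in these libraries (5.96, 1.81 and 0.964 CPM), and none in WT_2. In the 13 others mex1 lay between 0.204 and 1.51 CPM (median 1.07 CPM), so WT_4 was inside their range and WT_5 little above it.

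A list of 34 other genes taken as digestive enzymes had 29 in the table. Of these, 6 were at least 5-fold higher in C24_1 than in WT_5, 6 at least 5-fold higher in WT_5 and 17 neither. The highest in C24_1 was CG6277 with 3792 counts (481 CPM) against 0 in WT_5, followed by CG6271, CG6283 and CG6295 with 1359, 1079 and 884 counts against 1 each. In WT_5 the highest were CG18180 with 953 counts (52.2 CPM), CG11912 with 645, CG10472 with 414 and CG11911 with 387, against 6, 1, 4 and 1 in C24_1. Some genes outside the 5 families thus differed in the same way, while 17 of the 29 did not reach 5-fold. The list was chosen with earlier results of these data known, and the share over all genes was not counted. It is therefore given as a description and not as separate support. Amyrel, an amylase relative, was different in that WT_5 (2.90 CPM) exceeded C24_1 (0.254 CPM) but lay below the median of the 13 others (6.28 CPM). CG3108 was similar, with 2.25 CPM in WT_5, inside the 0.748 to 2.62 CPM of the 13 others, and 0.381 CPM in C24_1.

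The groups were compared gene by gene over the whole table, and the first comparison set the 3 C24 libraries of the second round against the 3 WT libraries of that round. There 37 of 9394 genes passed an adjusted p of 0.05 in edgeR's quasi-likelihood test (0.394%), and of the members only 5 had enough counts to be tested, none of which passed. At an unadjusted p under 0.05 there was 1 member of 5, against 7.31% of all genes tested, and DESeq2 called 0 members. The members tested had a median log2 difference (C24 minus WT) of -1.53, against -0.00 over all genes tested. That median rested on few genes and libraries, being 0.11 with the replicate number as a block and -0.16 without WT_4, where 8 members were tested. Counts spread widely within WT. Jon65Aiv, for example, had 344, 53 and 12 counts in WT_4, WT_5 and WT_6 and 66, 22 and 21 in C24_5 to C24_7, and Jon99Ciii had 2, 766 and 25 against 2, 26 and 9.

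For X7/C24 the study did not use X7/C24_4, and this choice was followed. Against the WT libraries of the second round, X7/C24_1 to X7/C24_3 had 4087 of 9657 genes past the threshold, or 42.3%. Of 5 members tested, 1 passed, Jon65Aiii, and 3 had an unadjusted p under 0.05, against 51% of all genes. It had 296, 54 and 14 counts in WT_4 to WT_6 (11.0, 2.96 and 0.525 CPM) and 1, 4 and 7 counts in X7/C24_1 to X7/C24_3 (0.0595, 0.183 and 0.247 CPM), without overlap. It was lower in X7/C24 by a log2 difference of -4.69 (SE 1.17, adjusted p = 0.0127, edgeR). Its X7/C24 counts were too low for the filter, so it entered the test through the WT libraries. The direction can follow from this entry. A share of 1 in 5 is below the share over all genes. Without WT_4 the log2 difference was -3.14 (adjusted p = 0.0271). The median over the members tested was -0.54, and -0.00 over all genes. It was -0.18 without WT_5 (7 members tested) and -2.28 without X7/C24_3 (9 members tested).

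Against C24, 1280 of 9454 genes passed (13.5%), and again 1 of 5 members, Jon65Aiii, while 3 had an unadjusted p under 0.05, against 29.8% of all genes. C24_5 to C24_7 had 33, 20 and 23 counts (1.79, 0.988 and 1.15 CPM), all above the X7/C24 libraries, and the log2 difference was -2.77 (SE 0.454, adjusted p = 0.00871, edgeR). Here Jon65Aiii passed the filter through the C24 libraries, from which its direction can follow. With X7/C24_4, which had 6 counts, the adjusted p was 0.0649 and no member passed. The median was -0.29 against 0.01 over all genes, and -0.92 without C24_6 (6 members tested). X7/C24 was sequenced in a round of its own, so genotype and round cannot be told apart in either comparison, and both share the same X7/C24 libraries.

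Without the filter on low counts, 42 members entered the comparison of X7/C24 with WT and 9 passed, all lower in X7/C24. They were Jon65Aiii together with alphaTry, epsilonTry, Amy-d, Jon65Ai, Jon65Aii, Jon66Ci, Jon99Ci and Jon99Ciii. Over all genes of that fit 3941 of 13028 passed, or 30.3%. In each of the 9 members most of the second-round WT counts lay in 1 library, WT_4 for Jon65Aiii, alphaTry and epsilonTry and WT_5 for the rest. Amy-d, for instance, had 7, 251 and 3 counts in WT_4 to WT_6 and 1, 0 and 1 in X7/C24_1 to X7/C24_3.

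Over all 13 WT and C24 libraries, 1 of 9387 genes passed (0.0107%), and none of the 4 members tested, with 1 at an unadjusted p under 0.05 (1.41% of all genes) and none in DESeq2. The spread between libraries of a group was wide in this fit, a coefficient of variation of 0.730 against 0.132 in the second round. The lack of calls therefore does not show a lack of differences. In the edgeR fit the direction of the Jon genes tested was that of C24_1. This depended on the method. With C24_1 still included, the median log2 difference of the members tested was 4.21 in that fit. It was -2.54 in DESeq2 and -0.59 with the replicate number as a block. Jon65Aiii was higher in C24 by 4.09 (log2, SE 2.52, adjusted p = 1.0, edgeR) with C24_1 and lower, at -4.91 (SE 1.42, adjusted p = 0.414), without it. For Jon65Aiv these values were 4.34 and -4.28, and for Jon74E 6.54 and -0.70, none of which passed the threshold.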

How the data were processed

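Pools of larval CNS, 6 of WT, 7 of C24 and 4 of X7/C24, were profiled by paired-end mRNA-seq. The authors filtered reads by quality, aligned them with BWA to BDGP5 keeping a single position per read, removed duplicates with SAMtools and counted pairs on FlyBase genes with htseq-count, without strand. Removing duplicates can lower the counts of short, very abundant transcripts, and near-identical copies lose reads. The values used are these deposited counts, whole numbers without normalization. The normalized tables and size factors that the authors also deposited were not used, and 0 columns lacked a sample.

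CPM divide a count by the library total. Exon lengths, positions and overlaps came from the BDGP6 annotation. Intervals are Wilson 95% intervals and, like the limit of 3 counts for a 0, reflect counting error alone, since PCR copies are not separate molecules. Comparisons used edgeR 4.0.16 in R 4.3.3 (quasi-likelihood test, TMM scaling, filterByExpr, Benjamini-Hochberg over all genes tested, threshold 0.05), tested on simulated data. Alternatives were DESeq2 1.42.0, its size factors in edgeR, no filter, terms for the replicate number and the kit set, X7/C24_4 included, the second round as 2 against 2, and each library left out in turn. P-values measure the spread between pools.

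Members and gene lists were chosen with earlier results of these data known, and sums over members got no test between groups. Described in full were the member with the highest count of its family in C24_1, the highest members of WT_2, WT_4 and WT_5, and members past the threshold. Amy-d, Jon99Ciii, Jon65Ai and Mal-A6 were added to these after their values were seen. No genome sequence was used here.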

Additional observations from a re-analysis of the deposited data

Results flagged for a closer look

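A library was picked out where its gap to the nearest library of its group, divided by the whole range of the group, exceeded Dixon's 95% critical value. The test was run on 16 values (sums of the families and the genes described library by library) in each of the 3 groups, and 27 of the 48 groups had such a library, where chance gives about 1 in 20. Many of the genes were picked as the highest of these same libraries, and the values share libraries and genes, so the number of flags cannot be read against chance.

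C24_1 stood far above the other C24 libraries in the sum of all members without Mal-A5 (9262.2 CPM), of Jon (6695.9 CPM), Try (1533.9 CPM), Lys (864.88 CPM) and Mal-A without Mal-A5 (167.19 CPM). It did so in Jon65Aiv (2253.8 CPM), Jon65Aiii (1959.2 CPM), LysS (758.96 CPM), epsilonTry (553.2 CPM) and Mal-A6 (100.59 CPM), and, from 5 counts, in Jon65Ai (0.63426 CPM).

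WT_2 stood above the other WT libraries in the sums of Lys (44.896 CPM) and of Mal-A without Mal-A5 (19.732 CPM), and in Jon65Aiii (97.441 CPM), Jon65Aiv (92.785 CPM), LysS (41.57 CPM) and Mal-A6 (10.531 CPM). WT_5 did so in the Amy sum (16.648 CPM), Jon99Ciii (41.948 CPM), Jon65Ai (18.729 CPM), Amy-d (13.745 CPM) and Amy-p (2.9024 CPM). WT_1 lay below the other WT libraries in Mal-A5 (131.12 CPM).

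X7/C24_4, which the study left out of its comparisons, stood above the other X7/C24 libraries in the sum of all members without Mal-A5 (12.594 CPM), the Jon sum (8.9003 CPM), Jon99Ciii (1.6348 CPM, 27 counts) and Jon65Ai (1.5137 CPM, 25 counts). WT_4 was not picked out in any of these values.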

How the results depend on the processing

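Under the filter Jon65Aiii entered through the group where it was higher, so its direction there can follow from the filter. Its lower level in X7/C24 kept its direction in each alternative of both comparisons, the fit without the filter among them. Against WT its adjusted p ran from 0.000672 to 0.0454 over 11 alternatives (edgeR and DESeq2), and against C24 from 0.000193 to 0.0649, past the threshold in 10 of 11. The number of members called against WT was 9 of 42 without the filter (3941 of 13028 genes), 2 of 5 with a kit set term (3660 of 9657 genes) and 1 to 4 with a library left out, the highest, 4 of 7, without WT_6 (3152 of 9721 genes). Against C24 it was 0 with X7/C24_4 included and 1 to 3 with a library left out, the highest, 3 of 6, without C24_6 (2707 of 9615 genes). The kit set of X7/C24_1 was listed ambiguously, which touches each kit set term for X7/C24. In the other comparisons it was 0 throughout.

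Counts of all genes called moved more. In the second round DESeq2 called 122 genes, a kit set term left 11, 2 against 2 libraries gave 214, and leaving out a library gave 5 (without WT_4) to 27 (without C24_6). For X7/C24, including X7/C24_4 gave 761 genes against WT and 33 against C24, where a kit set term gave 752 and leaving out a library 461 (without X7/C24_3) to 2707 (without C24_6). Over all libraries DESeq2 called 26 genes, the fit without the filter 0, and leaving out a library gave 0 to 7, the highest without C24_1. Leaving out WT_1, WT_2 and C24_1 together, chosen after seeing the data, gave 35. The cause of these shifts was not tested.

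Replicate numbers did not pair the libraries in the second round, and over all libraries the result was mixed. Deviations of libraries with the same number correlated at -0.10 and -0.16 in the second round and over all libraries at 0.58 to 0.84 for 5 of 6 numbers and at -0.72 for number 2. The replicate block gave 14 genes in the second round and 0 over all libraries, and no member in either. No paired analysis was possible for X7/C24 because these libraries share fewer than 2 numbers with those compared.

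Differences that turned their sign were all below the threshold. In the second round (log2, C24 minus WT) Jon74E was at 0.23 with the replicate block, 0.42 in 2 against 2 and -0.41 to 0.22 with a library left out. Jon65Aiv was at 0.64 with the block and -2.38 to 0.23 with a library left out (0.23 without WT_4), Jon99Ciii at -5.54 to 0.26 (0.26 without WT_5) and Mal-A5 at -0.0064 to 0.14. For X7/C24 against WT, Mal-A8 was at -0.029 with a kit set term and -0.27 to 2.55 with a library left out, and Amy-p at -0.999 to 0.83 (0.83 without WT_5). Over all libraries Jon65Aiii was at -4.76 with DESeq2, -1.59 with the replicate block, -2.29 without the 3 pilot libraries and -4.91 to 6.80 with a library left out. Jon65Aiv was at -4.25, -1.31, -1.86 and -4.28 to 6.91 in the same order, and Jon74E at -0.82 with DESeq2 and -0.70 to 7.23 with a library left out. The lowest value of each range was without C24_1 and the highest without WT_2.

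The sum of the members without Mal-A5 depended on the scaling and on its top gene. With TMM library sizes it was 13382 CPM in C24_1, 412 CPM in WT_2 and 164 CPM in WT_5. Without its top gene it was 7009 CPM in C24_1, 215 CPM in WT_2, 28.6 CPM in WT_4 and 132 CPM in WT_5. The order of these libraries did not change in either. Mal-A5 moved from 174 to 252 CPM in C24_1 and from 174 to 164 CPM in WT_5 with TMM sizes. At 7883183 counts, C24_1 was also the shallowest library, and members with few counts elsewhere are limited by counting error.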
